A study of Homo sapiens with 12 samples.

Results

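The genes described here are 10 transcriptional targets of p53: CDKN1A, GDF15, MDM2, BBC3, FAS, TNFRSF10B, SESN1, BTG2, PHLDA3 and ZMAT3. They were taken by gene symbol from the 60624 genes of the deposited count and TPM tables, and all 10 were found in both experiments. p53 is a transcription factor that is stabilised when DNA is damaged or when other stress signals reach it. It then raises genes that halt the cell cycle, repair DNA, alter metabolism or start cell death, and it raises MDM2, whose protein marks p53 for degradation and so closes a feedback loop. Several of these genes also have inputs that need no p53: GDF15 and TNFRSF10B are raised by the integrated stress response, and CDKN1A by many differentiation signals.

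Bulk RNA came from islet-like cells that had been grown from MEL1, a human embryonic stem cell line, by way of expandable pancreatic progenitors (ePPs). The 12 libraries form 4 groups of 3: NKX2-2 knockout (KO) and its wild type (WT), and CLEC16A KO and its own WT. NKX2-2 is a homeodomain transcription factor of islet cells, and CLEC16A is a regulator of mitophagy. All groups were collected at day 8 in R6 medium, and each KO was compared with its own WT. R6 medium is DMEM with B27, BSA, zinc sulfate, heparin, 616452, T3, LDN-193189, Compound E, vitamin C and forskolin. Before that, the progenitors had been kept on feeder cells with B27, EGF, bFGF, 616452 and I-BET151. The labels name no edited clone, so the effect of a knockout and a difference between cell lines cannot be told apart. They do not say whether replicates are separate cultures either, so every p-value is set against a spread between libraries that may be technical only.

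Libraries of the NKX2-2 experiment held 16157481 to 20649976 counts each, and those of the CLEC16A experiment 31364272 to 33763795. The 10 genes together took 0.0531% to 0.0544% of counts in NKX2-2 KO libraries and 0.0615% to 0.0681% in their WT libraries. They took 0.107% to 0.117% in CLEC16A KO libraries and 0.0573% to 0.0624% in their WT libraries. All 15 endocrine markers, INS, GCG and CHGA among them, had enough counts to be tested in both experiments. The transcript levels of the targeted genes gave no firm check of the labels. NKX2-2 had a log2 fold change of -0.32 (edgeR adjusted p = 0.0610) in its own experiment, and passed as lower in 8 of 20 alternatives (values of -0.76 to -0.25, adjusted p of 0.00192 to 0.235). CLEC16A had one of 0.18 (edgeR adjusted p = 0.0949) in its own, and passed in 1 of 19, as higher. NKX2-2 itself was lower with CLEC16A KO, by a log2 fold change of -0.93 (edgeR adjusted p = 3.53e-10). Mitochondrial DNA genes took 9.13% to 10.2% of counts in NKX2-2 KO libraries and 7.05% to 8.02% in their WT libraries, and 0 counts in the CLEC16A experiment. The tables of the experiments were made separately, so levels are compared only within an experiment.

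p53 binds a response element made of 2 abutting repeats of 10 bases. The 300 bases around transcript starts (250 before, 50 after) were searched for this element without a spacer, allowing 3 mismatches in 20 bases while the central C and G of each repeat were required. The element reads the same on both strands, so 1 scan covers both. RefSeq (GRCh38.p14) gave 16 such windows for 8 of the genes, and 5 windows of 4 genes (GDF15, MDM2, FAS and SESN1) held a match, 2 of them the same MDM2 element. Of all 35116 windows, 1.12% held a match. No match in the windows of CDKN1A, BBC3, BTG2 and ZMAT3 says only that these letters are not there, and a match is no evidence of binding. They are printed to set GDF15, FAS and MDM2, which rose with CLEC16A KO, beside SESN1, which did not pass in either experiment. The element is in capitals, 5′ to 3′ on the strand of the gene.
GDF15: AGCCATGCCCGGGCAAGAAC
FAS: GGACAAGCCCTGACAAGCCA
MDM2: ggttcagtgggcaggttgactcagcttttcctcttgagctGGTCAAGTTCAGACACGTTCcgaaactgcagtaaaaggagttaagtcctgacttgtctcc
SESN1: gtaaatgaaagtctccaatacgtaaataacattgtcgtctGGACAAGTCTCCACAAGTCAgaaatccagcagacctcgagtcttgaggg
The GDF15 element (chr19:18386186-18386205, plus strand, 3 mismatches) is exonic and starts 29 bases after the transcript start. The FAS element (chr10:88991309-88991328, plus strand, 2 mismatches) lies 122 bases before the start of an inner transcript, in an annotated exon. The MDM2 stretch (chr12:68808883-68808982, plus strand, 2 mismatches) is intronic, with the element starting 94 bases before 1 inner transcript start and 101 before another. An element that lacks a central C or G would not be marked by this search. The SESN1 stretch (chr6:109008989-109009077, minus strand, 3 mismatches) is intronic too, with its element starting 49 bases before an inner start. Exons and introns are those of GENCODE 29.

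In libraries labelled CLEC16A KO, 8 of the 10 genes rose and 0 fell by edgeR's quasi-likelihood test, adjusted after Benjamini and Hochberg over all 19958 genes tested. None of the 10 was lower at an unadjusted p under 0.05 (0 genes) or by DESeq2 (0 genes), and 1, BTG2, was lower by limma on log2(TPM + 1). By limma from TPM, 5 of the 10 were higher under each of 3 settings. Of all tested genes, 23.7% were called higher, 21.3% lower and 45.0% either way. Higher genes were 52.7% of all calls, and 39.8% with limma on log2(TPM + 1), where the median of all genes shifted by -0.10. The leading rises were in CDKN1A, GDF15 and FAS, each by at least 2-fold, where 8.74% of all genes were higher by that much. The median log2 fold change of the 10 genes was 0.45, against -0.01 for all genes tested. KO and WT libraries did not overlap for 7 of the 10 genes, all with KO above WT, and for 53.8% of all genes (27.4% with KO above and 26.4% with KO below WT). SESN1 and BTG2 did not pass the test. In bulk RNA, fewer cells of a type and less RNA per cell cannot be told apart, which holds for every level below.

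CDKN1A (ENSG00000124762, GRCh38 chr6:36676460-36687339, plus strand) encodes p21, an inhibitor of cyclin-dependent kinases that halts the cell cycle. It stood at 202, 207 and 209.7 CPM (counts scaled to library size) in the 3 CLEC16A KO libraries and at 47.1, 47.1 and 49.7 CPM in their WT libraries. The lowest KO library was thus far above the highest WT library. The difference was 4.30-fold, a log2 fold change of 2.11 (SE 0.06, edgeR adjusted p = 4.63e-17). Of all genes tested, 97.0% had a lower log2 fold change, and CDKN1A ranked 49 by its p.

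GDF15 (ENSG00000130513, chr19:18374731-18389176, plus strand) encodes a secreted cytokine of the TGF-beta family that rises in stressed tissues. Its KO libraries held 437, 408 and 504 CPM, against 125, 137 and 114 CPM in WT. The KO libraries varied more among themselves than for CDKN1A, but all 3 were above every WT library. GDF15 rose 3.59-fold, a log2 fold change of 1.84 (SE 0.08, edgeR adjusted p = 2.24e-13).

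The death receptors rose as well. FAS (ENSG00000026103, chr10:88990582-89015785, plus strand), the receptor of Fas ligand, was low throughout, at 7.24, 9.19 and 8.09 CPM in KO and 2.35, 2.93 and 2.52 CPM in WT libraries. The groups did not overlap, and the log2 fold change was 1.65 (SE 0.18, edgeR adjusted p = 6.74e-08), or 1.09 by limma from log2(TPM + 1). Its exons share 380 bases with ACTA2, a gene on the opposite strand, and whether the counting used strand is not given in the sources used here. ACTA2 was at 4.78 to 5.84 CPM in KO and 6.51 to 7.48 CPM in WT libraries. Its log2 fold change of -0.36 did not pass (edgeR adjusted p = 0.0671). The part of shared reads in the FAS values was not tested.

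TNFRSF10B (ENSG00000120889, chr8:23020133-23069179, minus strand) encodes a death receptor for the ligand TRAIL. It was at 249.8, 237 and 246 CPM in KO and 138, 148 and 133 CPM in WT libraries. The 3 libraries of each group lay close together and the groups were well apart. TNFRSF10B rose 1.75-fold, a log2 fold change of 0.81 (SE 0.06, edgeR adjusted p = 4.20e-10).

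BBC3 (ENSG00000105327, chr19:47220822-47232766, minus strand) encodes PUMA, a BH3-only protein that triggers the mitochondrial route of cell death. It was at 16.7, 18.0 and 15.8 CPM in KO and 11.4, 11.9 and 11.8 CPM in WT libraries, without overlap. The rise was 1.44-fold, a log2 fold change of 0.53 (SE 0.11, edgeR adjusted p = 5.84e-04), and 0.30 by limma from log2(TPM + 1) values (adjusted p = 0.0248).

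MDM2 (ENSG00000135679, chr12:68808176-68850686, plus strand), the ubiquitin ligase that limits p53, was at 76.9, 69.3 and 81.7 CPM in KO and 55.8, 69.5 and 52.7 CPM in WT libraries. WT replicate 2 lay as high as the lowest KO library, so the groups overlapped. MDM2 had a log2 fold change of 0.36 (SE 0.09, edgeR adjusted p = 0.00338). This call was lost without both libraries numbered 3 (log2 fold change 0.22, edgeR adjusted p = 0.0786) and by limma from TPM (0.23, adjusted p = 0.125).

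PHLDA3 and ZMAT3 passed by a small margin. PHLDA3 (ENSG00000174307, chr1:201464383-201469237, minus strand) encodes a small pleckstrin homology domain protein that keeps the kinase AKT from the membrane. It was at 16.03, 13.9 and 12.1 CPM in KO and 11.5, 10.2 and 10.7 CPM in WT libraries. ZMAT3 (ENSG00000172667, chr3:179017223-179072279, minus strand), a zinc finger protein that binds RNA, was at 46.6, 43.8 and 49.8 CPM in KO and 37.8, 42.6 and 40.4 CPM in WT libraries. Neither gene's groups overlapped, but the lowest KO library stood only just above the highest WT library in both. PHLDA3 had a log2 fold change of 0.37 (SE 0.13, edgeR adjusted p = 0.0237) and ZMAT3 one of 0.22 (SE 0.08, edgeR adjusted p = 0.0325). The PHLDA3 call was lost without KO replicate 1 (0.27, edgeR adjusted p = 0.146), WT replicate 2 (0.33, 0.0772) or WT replicate 3 (0.36, 0.0695), and the log2 fold change was 0.12 on log2(TPM + 1) (limma adjusted p = 0.723). The ZMAT3 call was lost without KO replicate 1 (0.22, edgeR adjusted p = 0.0765), KO replicate 3 (0.17, 0.104), WT replicate 1 (0.17, 0.169) or WT replicate 3 (0.21, 0.0859).

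SESN1 and BTG2 did not pass. SESN1 (ENSG00000080546, chr6:108986437-109094819, minus strand), a sestrin that restrains the growth kinase mTORC1, was at 30.7, 29.7 and 29.6 CPM in KO and 28.5, 33.9 and 30.3 CPM in WT libraries. BTG2 (ENSG00000159388, chr1:203305491-203309602, plus strand), an antiproliferative protein that promotes mRNA deadenylation, was at 95.1, 90.9 and 89.2 CPM in KO and 102, 91.6 and 101 CPM in WT libraries. The groups overlapped in both genes. The log2 fold change was -0.04 for SESN1 (95% confidence interval -0.23 to 0.14) and -0.10 for BTG2 (-0.24 to 0.04). BTG2 passed as lower with upper-quartile scaling (-0.17, edgeR adjusted p = 0.0390) and on log2(TPM + 1) (-0.23, limma adjusted p = 0.0490).

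**Figure D1:**
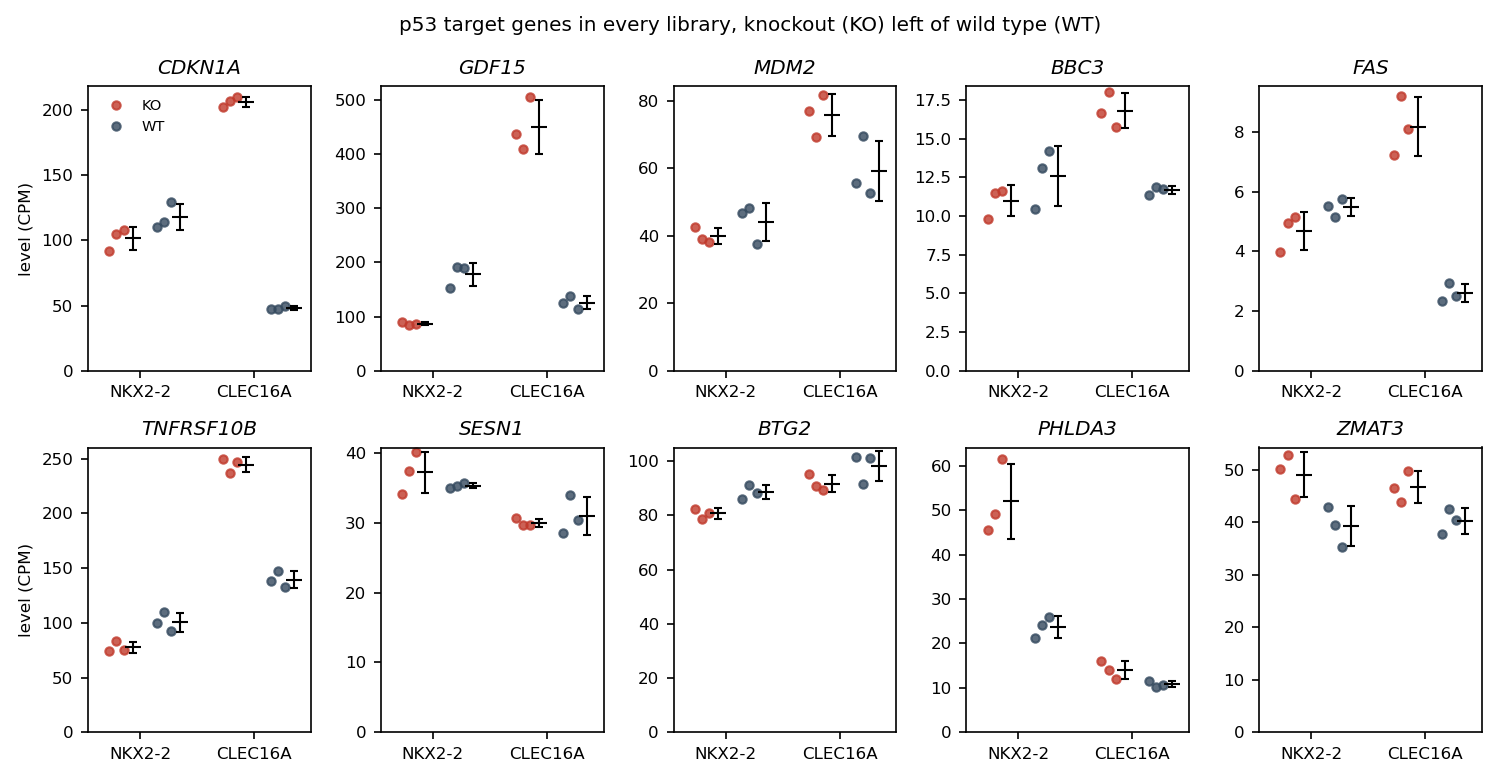
Levels of the 10 p53 target genes in CPM (counts scaled to library size), 1 panel per gene with its own axis from 0. Red points are the 3 KO libraries and dark points the 3 WT libraries of each experiment, with mean and SD beside them. CDKN1A is above 200 CPM in every CLEC16A KO library and below 50 CPM in every WT library of that experiment, while PHLDA3 is apart mainly in the NKX2-2 experiment.

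In libraries labelled NKX2-2 KO, 1 of the 10 genes rose, 2 fell and 7 did not pass. Of 17436 genes tested, 16.6% were called higher, 16.8% lower and 33.4% either way, so the share of the 10 genes that was called lay near that of all genes. PHLDA3 rose and GDF15 fell, each by at least 2-fold (7.28% of all genes were higher and 5.53% lower by that much), and TNFRSF10B fell by less. The median log2 fold change of the 10 genes was -0.17, against 0.03 for all genes. KO and WT libraries did not overlap for 7 of the 10 genes, 2 with KO above and 5 with KO below WT, and for 45.5% of all genes (23.1% above and 22.5% below).

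PHLDA3 stood at 45.4, 49.0 and 61.5 CPM in NKX2-2 KO libraries and at 21.1, 24.2 and 26.0 CPM in their WT libraries. KO replicate 3 was the highest, and every KO library was well above every WT library. The rise was 2.19-fold, a log2 fold change of 1.13 (SE 0.14, edgeR adjusted p = 3.35e-05). It passed in all 20 alternatives run, with log2 fold changes from 0.95 to 1.20.

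GDF15 was at 89.8, 84.0 and 86.6 CPM in KO and 153, 192 and 189 CPM in WT libraries. Every KO library lay far below the lowest WT library, WT replicate 1. GDF15 fell 2.05-fold, a log2 fold change of -1.04 (SE 0.11, edgeR adjusted p = 1.04e-05), and passed in all 20 alternatives run.

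TNFRSF10B was at 74.2, 83.6 and 75.3 CPM in KO and 99.6, 110.0 and 92.7 CPM in WT libraries, without overlap. It fell 1.30-fold, a log2 fold change of -0.37 (SE 0.11, edgeR adjusted p = 0.0152). Without WT replicate 2 the log2 fold change was -0.33 (edgeR adjusted p = 0.0834).

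CDKN1A was at 91.9, 105 and 108 CPM in KO and 109.9, 114 and 129 CPM in WT libraries. KO replicate 3 came close to WT replicate 1, though the groups did not overlap. The log2 fold change of -0.21 (95% confidence interval -0.44 to 0.02, edgeR adjusted p = 0.145) did not pass. ZMAT3 was at 50.1, 52.8 and 44.4 CPM in KO and 42.9, 39.6 and 35.4 CPM in WT libraries, a log2 fold change of 0.32 (SE 0.12, edgeR adjusted p = 0.0524). It passed without KO replicate 3 (0.39, edgeR adjusted p = 0.0246) and in 4 other alternatives of 20.

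The remaining 5 genes did not pass in the main test or in any of the 20 alternatives. MDM2 was at 42.6, 39.0 and 38.2 CPM in KO and 46.7, 48.2 and 37.6 CPM in WT libraries, and BBC3 at 9.81, 11.5 and 11.6 CPM in KO and 10.4, 13.1 and 14.2 CPM in WT libraries. Both overlapped between groups, with log2 fold changes of -0.15 (95% confidence interval -0.41 to 0.12) and -0.19 (-0.52 to 0.14). FAS was at 3.97, 4.95 and 5.14 CPM in KO and 5.53, 5.16 and 5.76 CPM in WT libraries, a log2 fold change of -0.22 (-0.61 to 0.16). The highest FAS value of KO lay just under the lowest of WT, and ACTA2, which shares exon bases with FAS, was higher in KO (182.8 to 243 CPM) than in WT libraries (86.2 to 105 CPM). SESN1 was at 34.1, 37.4 and 40.0 CPM in KO and 34.9, 35.3 and 35.7 CPM in WT libraries, a log2 fold change of 0.08 (-0.16 to 0.31). BTG2 was at 82.4, 78.7 and 80.9 CPM in KO and 86.0, 91.2 and 88.2 CPM in WT libraries, a log2 fold change of -0.13 (-0.34 to 0.07).

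**Figure D2:**
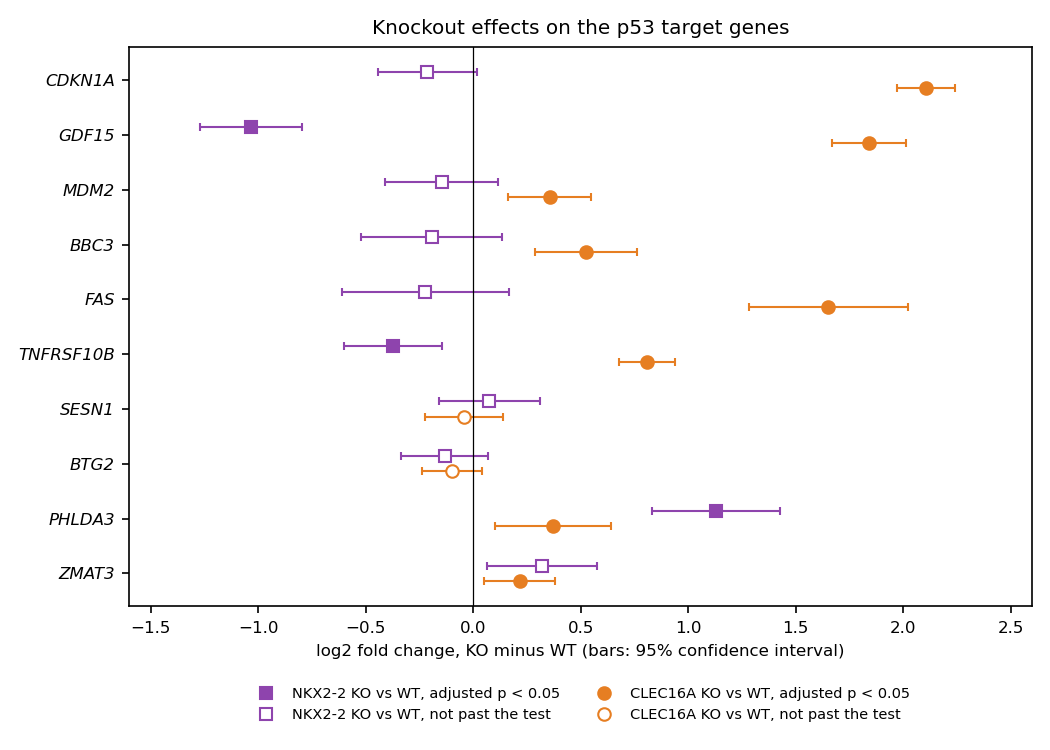
Log2 fold change of KO over WT for each of the 10 genes, with 95% confidence intervals; squares are the NKX2-2 experiment and circles the CLEC16A experiment, filled where the edgeR adjusted p was under 0.05. The experiments lie furthest apart for GDF15 (-1.04 and 1.84) and CDKN1A (-0.21 and 2.11), and PHLDA3 lies further right in the NKX2-2 experiment (1.13) than in the CLEC16A experiment (0.37).

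An interaction term over the 12 libraries then compared the KO effects of the experiments. It passed for 7 of the 10 genes, 6 with the NKX2-2 effect below and 1 with it above the CLEC16A effect. Of the 20494 genes tested, 38.2% passed, 20.4% below and 17.8% above. Calls above were 46.6% of these, and 57.2% with upper-quartile scaling, which shifted the median of all genes by 0.12. Values here are the NKX2-2 effect minus the CLEC16A effect on the log2 scale. GDF15 differed by -2.87 (SE 0.15, edgeR adjusted p = 1.02e-12) and CDKN1A by -2.31 (SE 0.13, edgeR adjusted p = 2.62e-12). FAS followed with -1.87, TNFRSF10B with -1.17, BBC3 with -0.71 and MDM2 with -0.49. PHLDA3 differed the other way, by 0.77 (SE 0.18, edgeR adjusted p = 0.00199), a call lost by limma from TPM under all 3 settings (0.84, 0.90 and 0.84, adjusted p = 0.0655, 0.0712 and 0.153).

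Of the 7 genes, MDM2 had the highest adjusted p (edgeR, 0.0173). Its call was lost without NKX2-2 WT replicate 2 (-0.43, adjusted p = 0.0621), CLEC16A KO replicate 3 (-0.44, 0.0524), CLEC16A WT replicate 1 (-0.45, 0.0503) or CLEC16A WT replicate 3 (-0.42, 0.0606). The MDM2 call was also lost with upper-quartile scaling (-0.37, edgeR adjusted p = 0.0662). By limma from TPM it was lost under all 3 settings (-0.30, -0.32 and -0.30, adjusted p = 0.198, 0.237 and 0.315). For SESN1, BTG2 and ZMAT3 no difference passed, with 95% confidence intervals of -0.16 to 0.41, -0.26 to 0.21 and -0.18 to 0.40.

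Levels were compared between genes in TPM, which corrects for transcript length, within each group. In the CLEC16A experiment, GDF15 was the most abundant of the 10 at 691 ± 77.0 TPM in KO and 215 ± 20.4 TPM in WT libraries (SD, n = 3 each). CDKN1A came next in KO at 182 ± 4.03 TPM, ahead of TNFRSF10B (134 ± 11.9 TPM) and BTG2 (61.2 ± 2.50 TPM). In WT the order was TNFRSF10B (81.6 ± 5.25 TPM), BTG2 (72.1 ± 5.75 TPM) and CDKN1A (46.6 ± 2.77 TPM). CDKN1A was thus above BTG2 and TNFRSF10B in every KO library and below both in every WT library, where BTG2 and TNFRSF10B were close to each other. SESN1 was next in both groups, at 21.3 ± 0.474 TPM in KO and 22.3 ± 1.18 TPM in WT libraries. MDM2, BBC3, PHLDA3 and ZMAT3 lay between 10.5 and 18.1 TPM in KO and between 9.51 and 15.2 TPM in WT libraries. Within this set MDM2 and BBC3 overlapped, and so did PHLDA3 and ZMAT3, and in WT libraries PHLDA3 and BBC3. FAS was lowest, at 6.83 ± 1.13 TPM in KO and 2.73 ± 0.892 TPM in WT libraries.

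In the NKX2-2 experiment GDF15 led too, at 56.7 ± 3.37 TPM in KO and 112 ± 11.7 TPM in WT libraries. CDKN1A was second in both groups (36.0 ± 1.93 TPM in KO and 41.7 ± 2.70 TPM in WT libraries) and BTG2 next (22.0 ± 1.10 TPM in KO and 24.1 ± 0.572 TPM in WT libraries). PHLDA3, at 18.2 ± 4.43 TPM in KO libraries, overlapped both BTG2 and TNFRSF10B (18.0 ± 2.12 TPM), while in WT libraries PHLDA3 was at 8.88 ± 1.85 TPM and TNFRSF10B, overlapping BTG2, at 23.3 ± 1.96 TPM. SESN1 was at 10.5 ± 0.427 TPM in KO and 9.82 ± 0.176 TPM in WT libraries, where it overlapped PHLDA3. BBC3, MDM2 and ZMAT3 lay between 3.36 and 4.68 TPM in KO and between 3.46 and 5.13 TPM in WT libraries, and FAS was again lowest at 1.38 ± 0.276 TPM in KO and 1.74 ± 0.276 TPM in WT libraries. The deposited TPM of this experiment add up to only 41.4% to 47.2% of the full TPM total, against 99.7% to 99.8% in the CLEC16A experiment, so TPM are not set side by side between experiments.

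Among 13 regulators and relatives of p53 tested with CLEC16A KO, 2 rose, 3 fell and 8 did not pass. Thus 38.5% were called, against 45.0% of all genes. CDKN2A, whose locus encodes p16 and the MDM2 inhibitor ARF, was at 18.4, 18.2 and 14.9 CPM in KO and 4.90, 4.44 and 4.34 CPM in WT libraries. All KO libraries were far above all WT libraries, a log2 fold change of 1.91 (SE 0.14, edgeR adjusted p = 1.34e-10). Counts per gene do not tell the transcripts of p16 and ARF apart. CHEK1, a checkpoint kinase, rose by 0.29, and TP53BP1, a DNA break repair protein, fell by 0.40 on the log2 scale. The CHEK1 call was lost in 6 of 19 alternatives, over which its value ran from 0.10 to 0.32. Without WT replicate 3, 1 gene of this list passed as higher. TP63, a p53 relative, had a log2 fold change of -1.92 at levels of at most 1.61 CPM, a call lost in 4 of 17 alternatives. With NKX2-2 KO, TP63 was the only 1 of 12 tested that passed (1.40, edgeR adjusted p = 0.0245, at most 1.20 CPM), and it was lost without KO replicate 2 or 3 or WT replicate 1 or 2, and with DESeq2, where 0 passed as higher. None of the 12 was lower by edgeR, at an unadjusted p under 0.05 or by DESeq2 (0 in each). The share called was 8.33%, against 33.4% of all genes.

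A wider list of 39 other p53 targets was then read in the same way. With CLEC16A KO, 21 rose, 3 fell and 15 did not pass, and the median log2 fold change was 0.22. Thus 61.5% were called, against 45.0% of all genes (23.7% higher and 21.3% lower). DRAM1, a lysosomal membrane protein that promotes autophagy, was at 43.9, 42.7 and 45.3 CPM in KO and 19.9, 19.3 and 17.2 CPM in WT libraries (log2 fold change 1.22, SE 0.09, edgeR adjusted p = 8.83e-11). PGPEP1, a peptidase, rose by 0.67. PLK2, a polo-like kinase, fell by 0.47, and AEN, a nuclease of apoptotic cells, fell by 0.28. By limma from TPM with no filter, 13 passed as higher.

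With NKX2-2 KO, 5 of these 39 rose, 7 fell and 27 did not pass, and the median was -0.07. The share called was 30.8%, near the 33.4% of all genes (16.6% higher and 16.8% lower). PLK2 was at 163, 179 and 198 CPM in KO and 82.9, 74.2 and 84.8 CPM in WT libraries, apart in every library (log2 fold change 1.16, SE 0.11, edgeR adjusted p = 3.47e-06). FDXR, a mitochondrial ferredoxin reductase, rose by 0.75. PGPEP1 fell by 0.57, and SPATA18, a mitochondrial quality control protein, fell by 0.96. Without WT replicate 1 or WT replicate 2, 3 passed as higher and 4 as lower. The balance also changed with the scaling: 8 were higher and 6 lower with upper-quartile scaling. With all 12 libraries in 1 fit, 8 were higher and 9 lower.

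The families of the 10 genes were read next. Of 15 relatives tested with CLEC16A KO, 10 rose, 3 fell and 2 did not pass (median 0.42). Thus 86.7% were called, against 45.0% of all genes. TNFRSF1A, a TNF receptor, rose by 1.36 and TOB1, an antiproliferative relative of BTG2, by 1.20. SESN3, a relative of SESN1, fell by 1.03 to 63.3, 62.8 and 61.4 CPM in KO libraries, against 132, 117 and 133 CPM in WT libraries. PHLDA1, a relative of PHLDA3, fell by 0.43. Of 14 tested with NKX2-2 KO, 0 rose by edgeR, at an unadjusted p under 0.05 or by DESeq2, and 3 fell, among them TNFRSF1A by 0.44 and SESN2 by 0.51 on the log2 scale. The share called was 21.4%, below the 33.4% of all genes.

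Calls in the death receptor and mitochondrial routes went both ways, but were mostly higher with CLEC16A KO and mostly lower with NKX2-2 KO. Over all genes the directions were nearer to even (23.7% higher and 21.3% lower with CLEC16A KO, 16.6% and 16.8% with NKX2-2 KO). With CLEC16A KO, 13 of 23 rose, 3 fell and 7 did not pass (median 0.32), and 8 rose by limma from TPM. By edgeR 69.6% were called, against 45.0% of all genes. CFLAR, which encodes the inhibitor of caspase-8 at death receptors, led at 72.5, 77.2 and 72.4 CPM in KO and 15.2, 14.6 and 16.5 CPM in WT libraries (log2 fold change 2.26, SE 0.08, edgeR adjusted p = 8.17e-16). TNFSF10, which encodes TRAIL, the ligand of TNFRSF10B, was at 198, 196 and 229 CPM in KO and 56.8, 49.1 and 53.4 CPM in WT libraries (1.97, SE 0.08, edgeR adjusted p = 2.28e-15). In both genes every KO library was far above every WT library. BCL2, an inhibitor of mitochondrial cell death, fell by 0.84, and BAD, a BH3-only protein, fell by 0.49. The members that rose thus include both a ligand and an inhibitor of the receptor route.

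With NKX2-2 KO, 1 of 23 rose, 5 fell and 17 did not pass (median -0.18). The share called was 26.1%, below the 33.4% of all genes. CFLAR was at 26.3, 24.5 and 24.0 CPM in KO and 47.2, 42.4 and 44.3 CPM in WT libraries, without overlap (log2 fold change -0.84, SE 0.11, edgeR adjusted p = 6.14e-05). BCL2L1, which encodes the cell death inhibitor BCL-XL, fell by 0.51, and BCL2 rose by 0.72. By limma from TPM, BCL2 did not pass under any of 3 settings (0.34 to 0.67, adjusted p of 0.0565 to 0.118). Without KO replicate 2, 3 genes passed as lower.

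Targets of the integrated stress response, which also reaches GDF15, TNFRSF10B and SESN2, rose with CLEC16A KO in 10 of 14 genes, with 1 lower (median 0.50). Thus 78.6% were called, against 45.0% of all genes. ATF3, a stress-induced transcription factor, was at 24.5, 24.7 and 29.4 CPM in KO and 9.49, 7.15 and 9.26 CPM in WT libraries (log2 fold change 1.60, SE 0.12, edgeR adjusted p = 3.85e-10). ATF4, the central factor of this response, rose by 0.52, and VLDLR, a lipoprotein receptor, fell by 0.32. The ATF4 call was lost in 3 of 19 alternatives, over which its value ran from 0.29 to 0.55. With NKX2-2 KO, 0 of 14 rose by edgeR, at an unadjusted p under 0.05 or by DESeq2, and 7 fell (median -0.30). The share called was 50%, against 33.4% of all genes. TRIB3, a pseudokinase, was at 7.46, 8.00 and 8.37 CPM in KO and 16.5, 19.3 and 23.9 CPM in WT libraries (log2 fold change -1.32, SE 0.16, edgeR adjusted p = 2.51e-05). DDIT4, an inhibitor of mTORC1, fell by 1.18. The 3 KO libraries of TRIB3 lay below every WT library. GDF15 was higher in CLEC16A KO and lower in NKX2-2 KO libraries, as most called genes of this list were, and the part of this response in the GDF15 values was not tested.

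Cell cycle genes known to be repressed downstream of p21 were read beside CDKN1A. With CLEC16A KO, 13 of 20 rose and 0 fell by edgeR, with 0 lower at an unadjusted p under 0.05 and 0 by DESeq2 (median 0.33), in the libraries in which CDKN1A rose 4.30-fold. By edgeR 65% were called, against 45.0% of all genes. MKI67, a proliferation marker, was at 59.5, 55.4 and 55.2 CPM in KO and 34.4, 30.2 and 31.8 CPM in WT libraries (log2 fold change 0.82, SE 0.08, edgeR adjusted p = 1.22e-08), and RRM2, a subunit of ribonucleotide reductase, rose by 0.64. The count was 8 without KO replicate 1, and 3 by limma from TPM. With NKX2-2 KO, 1 rose, 7 fell and 12 did not pass (median -0.09). The share called was 40%, against 33.4% of all genes. MCM5 and MCM2, subunits of the replicative helicase, fell by 0.74 and 0.46, and CCNB1, a mitotic cyclin, rose by 0.45. The CCNB1 call was lost in 5 of 20 alternatives. The count of 7 was 2 without KO replicate 2, 4 without KO replicate 3, 4 without WT replicate 1 and 3 without WT replicate 2.

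**Figure D3:**
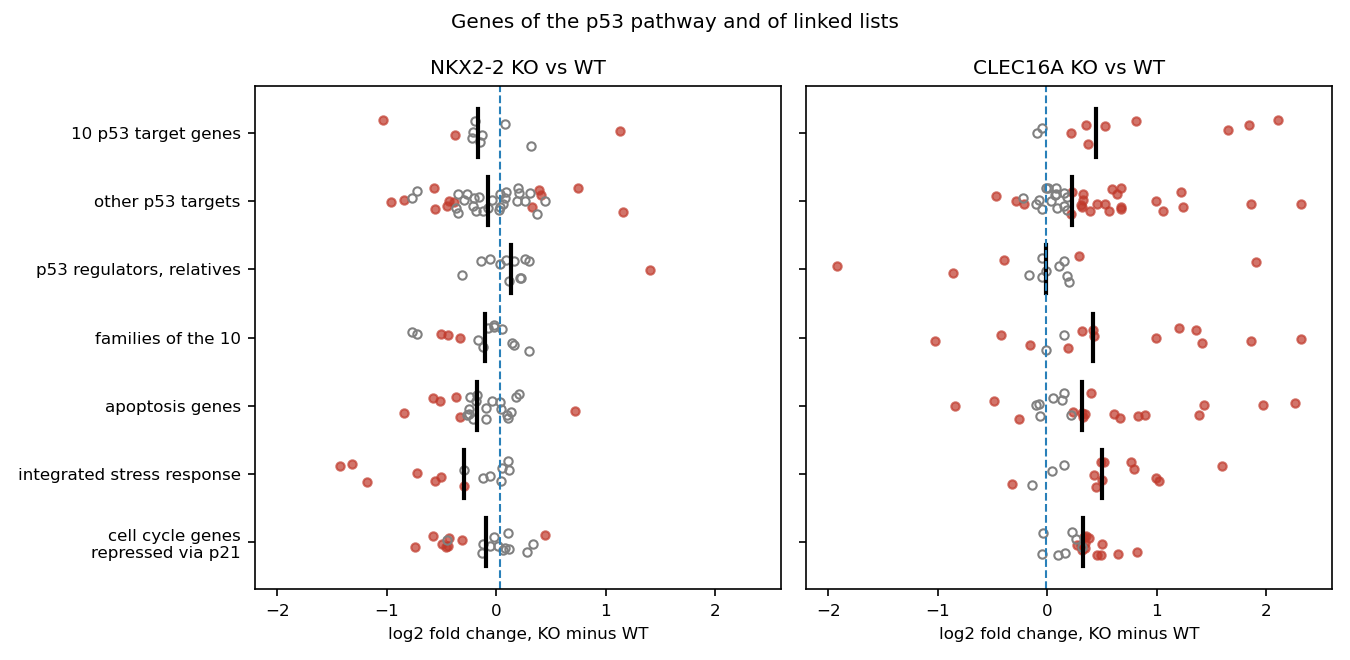
Log2 fold changes of KO over WT for the genes of 7 lists, 1 point per tested gene, filled red where the edgeR adjusted p was under 0.05; black bars are list medians and the dashed line is the median of all tested genes. In the CLEC16A experiment the median of the 10 p53 targets is 0.45 and that of the other targets 0.22, and in the NKX2-2 experiment these medians are -0.17 and -0.07.

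The lists share genes, so their counts are not independent. BAX, APAF1 and PMAIP1 are both other targets and apoptosis genes. PPM1D is both a regulator and another target, MDM4 both a regulator and a relative, and SESN2 both a relative and a stress response target. All 6 proliferation markers given below are also in the cell cycle list above, so they are no separate result. TNFRSF10A, TNFRSF10C and TNFRSF10D are both other targets and relatives. The 3 TRAIL receptors named rose with CLEC16A KO by 2.32 (TNFRSF10A), 1.86 (TNFRSF10C) and 1.00 (TNFRSF10D) on the log2 scale, beside TNFRSF10B at 0.81. They were chosen after their values were seen. With NKX2-2 KO none of the 3 passed by edgeR, with log2 fold changes of -0.72 (adjusted p = 0.0561), -0.77 (adjusted p = 0.0690) and -0.07 (adjusted p = 0.658).

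Markers of several cell types differed between the same groups. Among all genes, 45.0% were called with CLEC16A KO and 33.4% with NKX2-2 KO. In the CLEC16A experiment the 7 gut markers all rose, and their summed level was 4077 to 5072 CPM in KO and 779 to 806 CPM in WT libraries. Of 8 liver markers 6 rose, with sums of 16426 to 18084 CPM in KO and 6425 to 6741 CPM in WT libraries. Of 15 endocrine markers 14 fell and 1 rose, with sums of 16203 to 18405 CPM in KO and 29790.0 to 32709 CPM in WT libraries. Of 6 proliferation markers 5 rose (354 to 380.1 CPM in KO and 280.1 to 288 CPM in WT libraries), and of 12 mesenchyme markers 9 fell (74.6 to 79.8 CPM in KO and 216 to 229 CPM in WT libraries). Of 10 duct and acinar markers 8 rose and 1 fell, with sums of 879.9 to 894 CPM in KO and 646 to 683 CPM in WT libraries. Of 5 endothelium markers 1 rose and 2 fell (11.9 to 15.9 CPM in KO and 23.0 to 25.2 CPM in WT libraries), and of 4 pluripotency markers 2 rose and 2 fell (28.0 to 28.9 CPM in KO and 64.3 to 74.8 CPM in WT libraries). POU5F1, NANOG and PRDM14 were not tested there. Of 3 feeder and fibroblast markers tested 1 fell and the others did not pass (249 to 270 CPM in KO and 278 to 302 CPM in WT libraries). The part of these cell types in the rises of the p53 targets was not tested.

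In the NKX2-2 experiment all 12 mesenchyme markers rose, with sums of 7403 to 8479 CPM in KO and 2865 to 3174 CPM in WT libraries. Of 15 endocrine markers 11 fell and 2 rose, with sums of 2105 to 2281 CPM in KO and 5886 to 6360.5 CPM in WT libraries. Of 6 gut markers tested 4 fell and 1 rose (1136 to 1210.0 CPM in KO and 1527 to 1621 CPM in WT libraries). Of 6 endothelium markers 4 rose and 1 fell (67.4 to 76.0 CPM in KO and 23.5 to 29.2 CPM in WT libraries). Of 5 pluripotency markers tested 3 rose and 0 fell, with sums of 33.7 to 41.5 CPM in KO and 24.5 to 27.8 CPM in WT libraries. SOX2 was the most abundant of them. POU5F1 and NANOG were not tested, and POU5F1 was at 0 counts in WT libraries. Duct and acinar markers were mixed, with 3 of 9 higher and 2 lower (689 to 762 CPM in KO and 726 to 831 CPM in WT libraries). Liver markers were mixed too, with 2 of 8 higher and 2 lower (10081 to 12467 CPM in KO and 9958 to 11571 CPM in WT libraries). Of 6 proliferation markers 1 passed, as higher (244 to 342 CPM in KO and 268 to 276 CPM in WT). Of 4 feeder and fibroblast markers 2 rose and 1 fell (359 to 398 CPM in KO and 311 to 363 CPM in WT). KO and WT sums overlapped for the duct and acinar, liver, proliferation, and feeder and fibroblast markers, and not for the other lists. CHGA, an endocrine marker, and NANOG, which marks pluripotent cells, are among the genes with few counts per TPM in the NKX2-2 files. With that limit, NANOG was at 0 counts in all libraries of this experiment, and it was also at 0 counts in CLEC16A WT libraries. The part of other cell types in the rise of PHLDA3 and the fall of GDF15 was not tested.

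The genes whose course over the 12 libraries was most like that of CDKN1A were sought among 11785 genes with a mean of at least 5 CPM in both experiments. The measure was the root mean square difference of log2 CPM, centred on each experiment. CD9, a tetraspanin, was nearest (0.0742), then SLC35G1 (0.0879) and SULT1A2 (0.0935), where the median gene was at 0.772. SULT1A2, a sulfotransferase, can share reads with its near-identical relatives. CD9 had log2 fold changes of -0.29 with NKX2-2 KO and 1.99 with CLEC16A KO. Nearest to GDF15 were TMBIM1 (0.0880), IL22RA1 (0.109), a subunit of the interleukin-22 receptor, and APOA1 (0.110), an apolipoprotein, where the median gene was at 0.774. APOA1 had log2 fold changes of -1.04 with NKX2-2 KO and 1.86 with CLEC16A KO, close to those of GDF15. These distances rest on 12 libraries in 4 groups, so genes with like group differences come out near.

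Some exons of these genes overlap other genes in GENCODE 29, and the use of strand is unknown. MDM2 shares 133 exon bases with CPM, a carboxypeptidase gene, and TNFRSF10B shares 67 with RHOBTB2, both on the opposite strand. With CLEC16A KO the gene CPM had a log2 fold change of -0.37 and RHOBTB2 of -0.62. With NKX2-2 KO the values were 0.24 for the gene CPM and 0.24 for RHOBTB2, and neither passed. The part of shared reads in the values of MDM2, TNFRSF10B and, with ACTA2, FAS was not tested in either experiment.

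**Figure D4:**
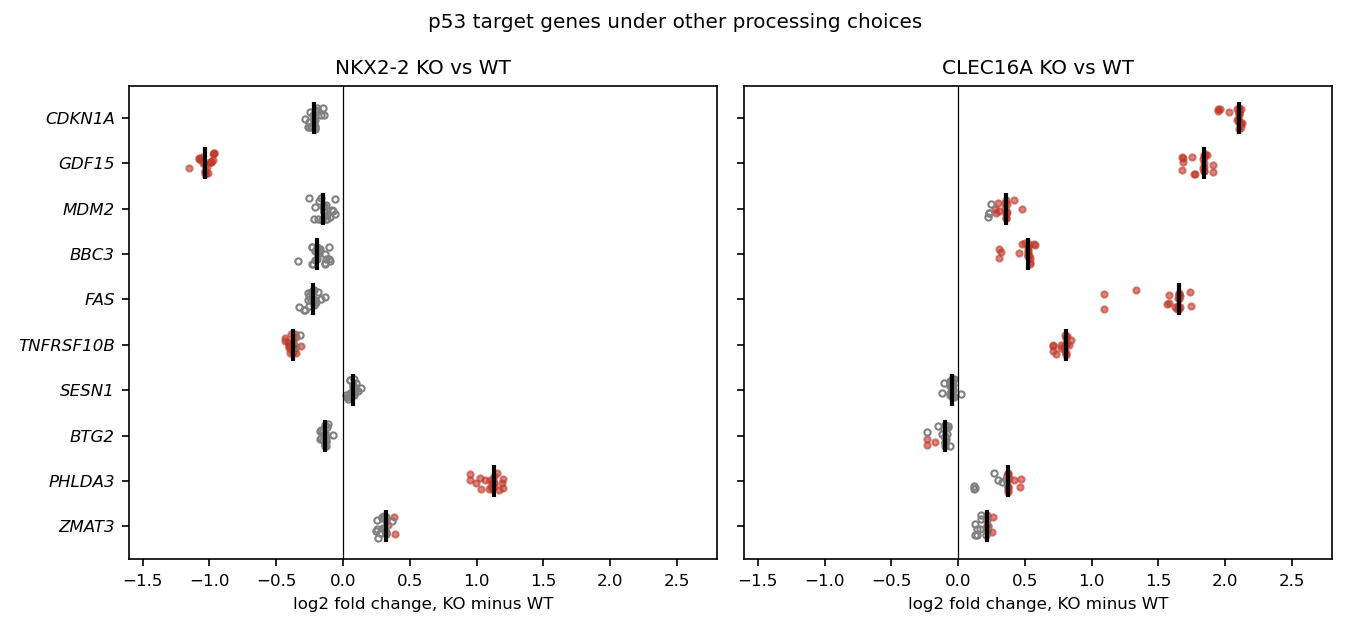
Log2 fold change of each of the 10 genes under every alternative run, 20 with NKX2-2 KO and 19 with CLEC16A KO; red points had an adjusted p under 0.05, open points did not, and black ticks are the main values. CDKN1A, GDF15, BBC3, FAS and TNFRSF10B passed in all 19 alternatives of the CLEC16A experiment, while ZMAT3 lost its call in 10 of them and PHLDA3 in 7.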

How the data were processed

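For each experiment the authors deposited 1 file of gene counts (whole reads, not normalized) and 1 file of TPM, which is scaled for transcript length and library size. The submitters' processing notes name the genome hg38 and the programs StringTie 2.1.7, HISAT2 2.2.1 and fastp 0.22.0. Which program counted the reads, from which annotation and with which strand setting is not given in the sources used here. Groups and replicate numbers are from the sample titles, which abbreviate both target genes. Gene symbols are those of the NKX2-2 TPM file, joined by Ensembl ID, and 45 rows of Y chromosome copies were left out. The ratio of counts to TPM was at least 4 times lower in the NKX2-2 files for 208 of 11060 genes compared, among which were 0 of the 10 p53 targets.

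The deposited counts of KO and WT were compared in each experiment by the quasi-likelihood test of edgeR 4.0.16 in R 4.3.3, with TMM scaling, the filterByExpr filter and robust dispersion. Adjusted p-values (Benjamini-Hochberg, over all tested genes) under 0.05 were called. The difference of the knockout effects was an interaction term in a fit of the 12 libraries. Levels are CPM on TMM-scaled library sizes. SE was taken as the size of the log2 fold change divided by the root of its F statistic, and intervals are 95%. Replicate libraries all differed by more than sampling noise. The fits were also run on simulated counts in which far fewer genes changed than were called here. Those runs therefore do not test the scaling of these data.

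The members and lists were chosen with earlier results of these data known, and 1 gene of the regulator list is not reported here. Named are the 10 members, the targeted genes, from each list the 2 genes with the smallest p in each direction, and the 3 nearest to CDKN1A and GDF15; marker genes are given as sums. Alternatives were upper-quartile and RLE scaling, DESeq2 1.42.0, no count filter or a stricter one, dispersion that is not robust, the replicate number as a block, all libraries in 1 fit, leaving out each library, and limma 3.58.1 from TPM, with a pseudocount of 1 or 0.1 and a mean TPM of at least 0.5 or no filter. Chosen after seeing the data were fits that leave out both libraries numbered 3, the 208 genes above, or mitochondrial DNA genes. Precision is lowest for FAS, which had 66 to 296 counts per library.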

Additional observations from a re-analysis of the deposited data

Results flagged for a closer look

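The knockout effects differed between the experiments, by the interaction test, for 7 of the 10 p53 target genes. The same test passed for 38.2% of all 20494 genes tested. The NKX2-2 effect minus the CLEC16A effect on the log2 scale was -2.87 for GDF15, -2.31 for CDKN1A, -1.87 for FAS, -1.17 for TNFRSF10B, -0.71 for BBC3, -0.49 for MDM2 and 0.77 for PHLDA3. GDF15 and TNFRSF10B passed in opposite directions in the experiments, while PHLDA3 passed as higher in both, with the larger value with NKX2-2 KO. The PHLDA3 difference did not pass by limma from TPM under any of 3 settings (0.84, 0.90 and 0.84, adjusted p = 0.0655, 0.0712 and 0.153), and its rise with CLEC16A KO was lost in 7 of 19 alternatives. The MDM2 difference was lost in 8 of 25 alternatives. Groups of 3 libraries are too small for a test of single outlying samples.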

How the results depend on the processing

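Of 3682 values under alternatives, 3393 kept their direction and side of the threshold or moved little, 113 lost and 18 gained a call, 150 counts or values moved and 8 reversed. With NKX2-2 KO, the count of p53 targets higher (1) was 2 with upper-quartile scaling, with one fit of all libraries and without both libraries numbered 3, ZMAT3 being added, and ran from 1 to 2 with each library left out. The count lower (2) was 1 by limma from log2(TPM + 1) without a filter and ran from 1 to 2 with each library left out. With CLEC16A KO, the count higher (8) was 5 with each limma setting on TPM and ran from 6 to 8 with each library left out, and the count lower (0) was 1 (BTG2) with upper-quartile scaling and by limma at either pseudocount, and 0 to 0 with each library left out. The interaction count (7) was 4 by limma without a filter and ran from 6 to 7 with each library left out.

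Reversed values belonged to genes that had not passed: CLEC16A in the NKX2-2 experiment (-0.054 without KO replicate 1, -0.069 without WT replicate 3, and from -0.069 to 0.14 with each library left out), SESN1 with CLEC16A KO (0.023 without WT replicate 2, and from -0.10 to 0.023 with each library left out) and the BTG2 interaction (0.093 with upper-quartile scaling, 0.102, 0.0996 and 0.102 with the limma settings, and from -0.054 to 0.019 with each library left out, the highest without CLEC16A WT replicate 2). The cause was not tested.

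Same-numbered libraries did not deviate together in every pair (correlations of 0.109, 0.0254 and 0.321 in the NKX2-2 and 0.0115, 0.0108 and -0.0302 in the CLEC16A experiment), so the numbers are not taken as pairs. In the NKX2-2 experiment the libraries numbered 3 did deviate together. There KO replicate 3 had -0.185 and -0.191 with WT replicates 1 and 2, and WT replicate 3 had -0.243 and -0.107 with KO replicates 1 and 2. Deviations were taken from the mean of each group, so negative values beside the 0.321 follow in part from the arithmetic. They are no separate evidence. With a replicate block, 2 p53 targets were higher and 3 lower with NKX2-2 KO (CDKN1A at -0.21, adjusted p = 0.0251), 8 and 0 with CLEC16A KO, and 7 interactions passed. Of the other p53 targets, 9 were then higher and 13 lower with NKX2-2 KO. Calls over all genes grew too, to 4077 higher and 3960 lower, from 2888 and 2936 in the main test.

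All genes called numbered 1624 higher and 1623 lower with limma and no filter in the NKX2-2 experiment (2888 and 2936 in the main test), and 3093, 3025 and 2841 higher with the limma settings in the CLEC16A experiment (4732). The median log2 fold change of all genes shifted there by -0.10 and -0.12 with a filter, and the share of calls that were higher was 39.8%, or 41.4% with no filter (52.7% in the main test). Upper-quartile scaling shifted the interaction by 0.12 for all genes, with 57.2% of calls above 0 (46.6% in the main test). FAS, with the fewest counts, had the widest intervals of the 10.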
